A study of Sorghum bicolor with 16 samples.

Results

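The endosperm of the sorghum waxy line wxe was compared at 21 DPA (days post anthesis) and at 16 DPA, the step from mid to late grain filling within the mutant line alone. The members were the 4 wxe libraries of these ages, 2 at 21 DPA and 2 at 16 DPA, of 16 libraries in the series. Expression was given as FPKM, fragments scaled to the length of the gene and to the number of fragments in the library. Of the 34129 genes in the table, the 15295 with a mean above 1 FPKM at either age were compared on the log2(FPKM + 1) scale. The wxe plants belonged to line 15M2-1184, made from BTx623 by ethyl methane sulfonate (EMS), and were homozygous for a stop-gained allele of GBSSI. That line carries further EMS mutations, so its values describe the line and not the GBSSI allele alone. The untreated parent BTx623, called WT here, was sampled at the same ages, again with 2 libraries per age. Both lines grew in adjacent rows of 1 field. Each replicate pooled seeds from the middle of 3 panicles that had flowered on the same day, and the endosperm was cut out of frozen seeds.

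In cereal endosperm, sucrose arriving from the mother plant is split and turned into ADP-glucose, from which starch synthases and branching enzymes build the granule. GBSSI is the granule-bound enzyme that makes amylose, and grain without its activity is waxy. Alongside starch the endosperm packs prolamin storage proteins, which are called kafirins in sorghum, and transcription factors of the NAC, bZIP, MYB and other families control many of these genes. Late in filling, cell division has largely ended and the tissue moves toward maturation and drying.

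The tissue label was borne out by the most abundant transcripts. SbGBSSI was at 3805 FPKM or more in all 4 libraries, and 7 of the 10 genes with the highest mean were kafirin genes. Those 10 genes held 44.2% and 42.2% of all FPKM at 21 DPA, against 41.0% and 37.4% at 16 DPA. The FPKM of a library summed to 993180 and 989392 at 21 DPA, against 887165 and 817733 at 16 DPA, so the sums were higher at 21 DPA in both replicates. Whether these sums had a part in the differences below was not tested. No read counts were at hand. From the spacing of the lowest values, the depth relative to 16 DPA replicate 1 was estimated at 0.890 and 0.946 at 21 DPA and 1.08 in 16 DPA replicate 2. Pearson's r of log2(FPKM + 1) was taken across all 34129 genes in the table, with those under the filter included, and genes are not independent replicates. It was 0.994 between the 21 DPA libraries and 0.995 between the 16 DPA libraries, and 0.976 to 0.980 between ages. By the study's methods each replicate was a harvest of its own, and a p-value here measures only the spread between pooled samples of 1 field. In such tissue samples, fewer cells of a type and less RNA per cell cannot be told apart.

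Of the genes tested in wxe, 2922 (19.1%) changed over late filling. At 21 DPA, 1591 genes (10.4%) were higher and 1331 genes (8.70%) were lower than at 16 DPA, by limma at an adjusted p below 0.05 (Benjamini-Hochberg) and a change of at least 0.58 on the log2 scale. The median change was 0.82 over the genes called higher, -0.85 over the genes called lower and 0.03 over all genes tested. A further 2338 genes passed the adjusted p but not the size. The largest changes were mostly falls, since 98 genes fell by 2 or more log2 units against 46 that rose by as much, and 34 fell by 3 or more against 9 that rose. Around the size threshold the change was 0.5802 in the nearest gene called higher and 0.5795 in the nearest that passed the adjusted p but missed the size, and -0.5801 and -0.5796 on the lower side.

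**Figure D1:**
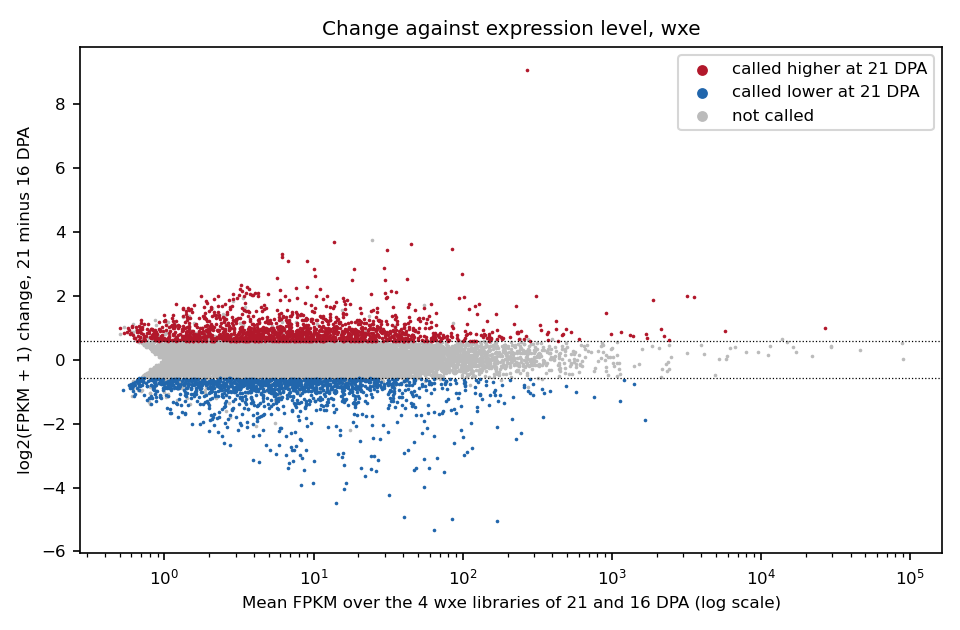
Change of each of the 15295 genes in wxe, 21 minus 16 DPA on the log2(FPKM + 1) scale, against its mean FPKM over the 4 libraries (log axis). Red points were called higher and blue points lower, the dotted lines mark a change of 0.58, and the falls reach -5.34 while all rises but 1 stay under 4.

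The set of genes above 1 FPKM kept its size, with 14574 genes at 21 DPA and 14588 at 16 DPA, of which 13867 were above 1 FPKM at both ages. Switches between clear expression and near silence were few. A mean above 5 FPKM at 21 DPA and below 1 at 16 DPA was found in 24 genes, 22 of them called higher, and the reverse in 26 genes, 24 of them called lower. The genes called higher took 11.8% and 12.9% of all FPKM at 21 DPA, against 6.76% and 7.25% at 16 DPA. The genes called lower took 1.87% and 2.09% at 21 DPA, against 4.996% and 5.45% at 16 DPA. Among the 64 tested genes with a mean over 1000 FPKM, 13 (20.3%) were called higher and 4 (6.25%) lower, while in the lower classes 8.56% to 11.3% were called higher and 6.81% to 9.76% lower. No chromosome stood apart, with 9.03% to 11.2% of its tested genes called higher and 7.80% to 9.49% lower.

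Set in the 4 ages of wxe, the genes that rose and those that fell had different histories. Of the 1591 genes called higher, 235 had their highest wxe mean at 6 DPA, 89 at 11 DPA and 1267 (79.6%) at 21 DPA. Of the 1331 genes called lower, the age of the highest mean was 6 DPA for 691 (51.9%), 11 DPA for 141 and 16 DPA for 499 (37.5%). These counts are a description, because the calls themselves used the 16 and 21 DPA means.

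Most of what changed in wxe had also changed in WT over the same days. In WT, 1710 of 15168 tested genes (11.3%) were called higher at 21 DPA and 1528 (10.1%) lower. The means compared in WT and in wxe shared no library, but the spread for both came from 1 fit of all 16 libraries. The lists of calls are therefore not independent of each other. The 1048 genes called higher in both lines were 65.9% of the wxe list and 61.3% of the WT list, and the 873 called lower in both were 65.6% and 57.1%. Of the wxe genes called higher that were also tested in WT, 1504 of 1534 (98.0%) had a WT change above 0, and of those called lower 1230 of 1268 (97.0%) had one below 0, while over all genes tested in both lines 49.99% were above 0. The median WT change was 0.77 over the wxe genes called higher and -0.80 over those called lower. Across the 14801 genes tested in both lines, r between the wxe change and the WT change was 0.835, given as a description.

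**Figure D2:**
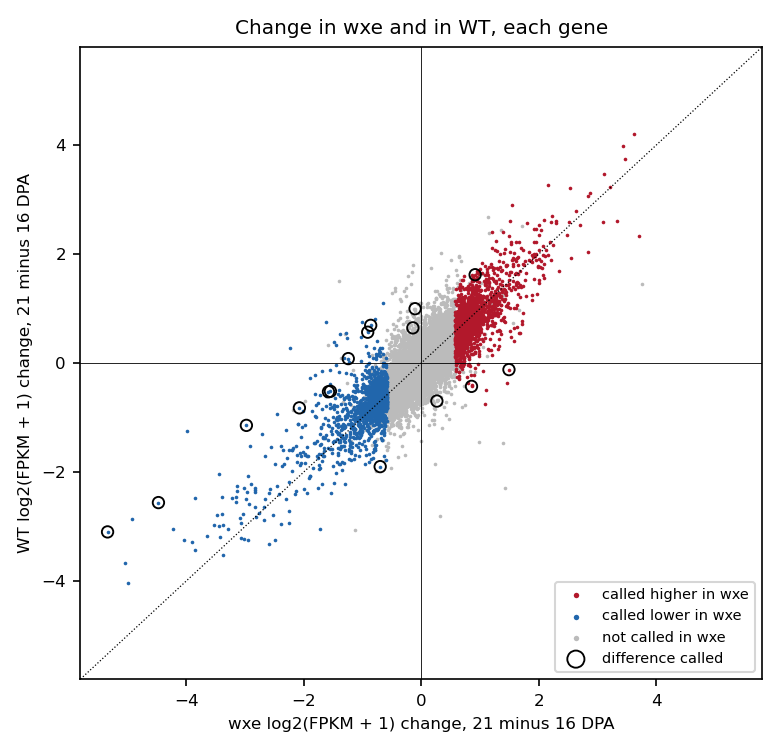
Each gene's change from 16 to 21 DPA on the log2(FPKM + 1) scale in wxe (horizontal) and in WT (vertical), with equal change on the dotted line and genes called in wxe in colour. Black rings mark the 16 genes tested in both lines whose change differed between them, and nearly all coloured points lie in the lower left and upper right quadrants.

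Tested directly, the change differed between wxe and WT in 20 of 15662 genes (0.128%), 6 (0.0383%) with the higher value in wxe and 14 (0.0894%) with the lower. At an unadjusted p below 0.05 there were 1674 genes. The count of 20 depended on single libraries, and was 11 without wxe 21 DPA replicate 1, 9 without wxe 16 DPA replicate 2, 11 without WT 21 DPA replicate 2, 4 without WT 16 DPA replicate 1 and 8 without WT 16 DPA replicate 2. Other settings gave a higher count, 41 at a pseudocount of 0.1, 41 when genes had to exceed 5 FPKM and 40 under quantile normalization. The genes behind it are described near the end.

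No gene of starch synthesis that the study names by ID passed both thresholds. Of the 8 genes of this pathway named by ID, 7 passed the expression filter and 0 were called in either direction, against 19.1% of all genes. Their median change was -0.30, against 0.03 over all genes. SbPHOL and SbAGPS2, which the study names in its text without an ID, were not looked up. A count of 0 of 7 is near that share. In 4 of the 7 both 21 DPA libraries lay below both at 16 DPA, which was so for 33.2% of all genes tested. SbGBSSI (Sobic.010G022600), the gene hit by the wxe allele, had 3920 and 4888 FPKM at 21 DPA, against 3805 and 3917 FPKM at 16 DPA. Both later values lay just above the earlier ones, and the change of 0.18 (SE 0.16, adjusted p = 0.396) did not pass the test and turned to -0.17 under quantile normalization. It was thus 1 of the 64 tested genes with a mean over 1000 FPKM. SbSBEIIb (Sobic.004G163700), the branching enzyme of the endosperm, had 666 and 673 FPKM at 21 DPA, against 885 and 806 FPKM at 16 DPA. By the study, this gene itself carries a homozygous nonsynonymous mutation in the line. Its values did not overlap between the ages, but the change of -0.34 (SE 0.14, adjusted p = 0.0882) was under both thresholds.

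The other starch genes moved within a narrow range. SbSSIIC (Sobic.001G239500), a starch synthase of amylopectin chains, had 11.4 and 12.5 FPKM at 21 DPA, against 17.2 and 18.0 FPKM at 16 DPA, a change of -0.52 (SE 0.12) that passed the adjusted p (0.00499) and not the size. SbSSIIIa (Sobic.007G068200), another starch synthase, had 67.2 and 59.1 FPKM at 21 DPA, against 96.9 and 74.5 FPKM at 16 DPA (change -0.43, adjusted p = 0.287). SbAGPLS1 (Sobic.003G230500), a large subunit of the ADP-glucose pyrophosphorylase that makes the starch precursor, had 1033 and 989 FPKM at 21 DPA, against 1304 and 1184 FPKM at 16 DPA (change -0.30, adjusted p = 0.163). In all 3 genes the later libraries lay below the earlier ones. The paralogous subunit SbAGPLS2 (Sobic.009G245000) had only 3.38 and 2.07 FPKM at 21 DPA, against 1.67 and 1.95 FPKM at 16 DPA (change 0.39, adjusted p = 0.148), and passed as higher without 21 DPA replicate 2. Sobic.002G160400, a further gene of the step to ADP-glucose, had 188 and 199 FPKM at 21 DPA, against 192 and 188 FPKM at 16 DPA, and the ages overlapped. SbSSIIIb (Sobic.006G221000) stayed under 1 FPKM and was not tested. In WT, where 2 of the starch genes were called lower, the change of SbSBEIIb was -0.69, and the difference between the lines did not pass (adjusted p = 0.586).

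**Figure D3:**
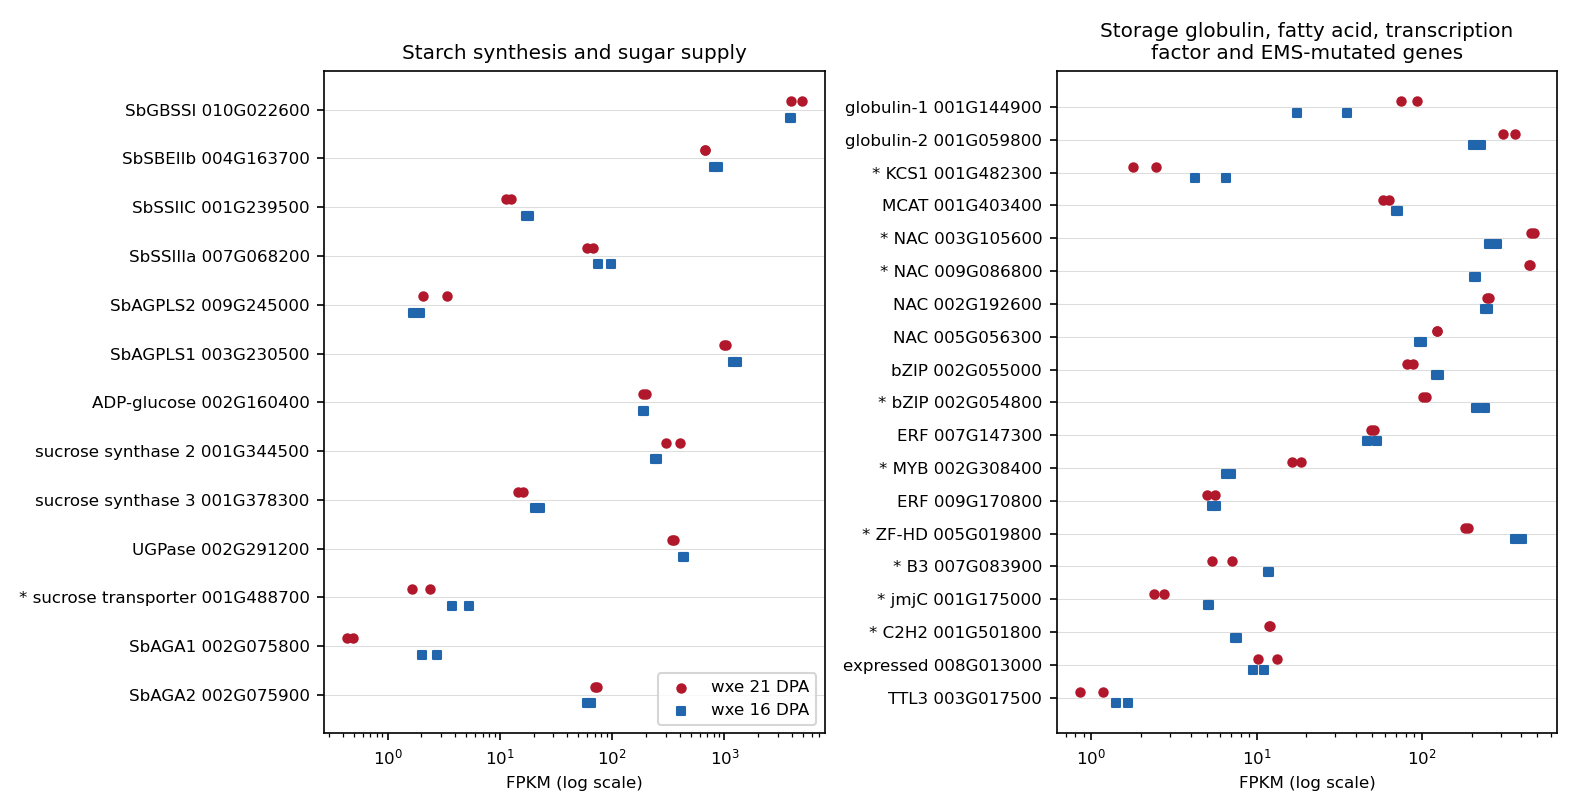
FPKM of each wxe library (log axis) for the 32 genes named by ID in the study that passed the expression filter. Red circles for 21 DPA lie above blue squares for 16 DPA, and an asterisk marks the 10 called genes. No starch gene carries an asterisk. NAC, bZIP, MYB and ZF-HD genes are among those that do, though not every NAC or bZIP gene.

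Of 9 named genes of sugar supply, 6 were tested, 1 was called lower and 0 were called higher, against 8.70% and 10.4% of all genes, with a median of -0.40. A count of 1 of 6 is near the share over all genes. The sucrose transporter gene (Sobic.001G488700), whose product carries sucrose across the cell membrane, fell to 2.38 and 1.66 FPKM at 21 DPA, against 3.76 and 5.26 FPKM at 16 DPA (change -0.86, SE 0.17, adjusted p = 0.00263). All its values were low and the ages did not overlap. It was not tested under a filter at a mean of 5 FPKM. The 2 sucrose synthase genes, whose enzymes split sucrose, had changes of opposite sign. Sucrose synthase 2 (Sobic.001G344500) had 302 and 399 FPKM at 21 DPA, against 241 and 253 FPKM at 16 DPA (change 0.49, adjusted p = 0.0332), and was called higher only when 21 DPA replicate 1 was left out. Sucrose synthase 3 (Sobic.001G378300) had 16.1 and 14.4 FPKM at 21 DPA, against 20.6 and 22.6 FPKM at 16 DPA (change -0.48, adjusted p = 0.0148). UTP-glucose-1-phosphate uridylyltransferase (Sobic.002G291200), which turns UDP-glucose into glucose 1-phosphate, had 339 and 357 FPKM at 21 DPA, against 436 and 431 FPKM at 16 DPA (change -0.32, adjusted p = 0.0346). These 3 genes passed the adjusted p and not the size, so they were not counted as called. SbAGA1 (Sobic.002G075800), linked to raffinose metabolism, had 0.488 and 0.435 FPKM at 21 DPA, against 2.02 and 2.74 FPKM at 16 DPA (change -1.20, adjusted p = 0.115). Its ages were well apart, and it was called lower when only the 4 wxe libraries were fitted or with a pseudocount of 0.1. SbAGA2 (Sobic.002G075900) had 70.8 and 73.1 FPKM at 21 DPA, against 64.6 and 59.2 FPKM at 16 DPA (change 0.22, adjusted p = 0.123). The SWEET sugar transporter genes SbSWEET1 and SbSWEET16 and the invertase 3 gene were under 1 FPKM at both ages.

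Storage protein transcripts held a large share of all FPKM at both ages. The 7 kafirin genes among the 10 most abundant held 36.6% and 34.0% of all FPKM at 21 DPA, against 34.8% and 31.2% at 16 DPA, so the ages overlapped. Sobic.009G001600 had 95041 and 86264 FPKM at 21 DPA, against 91812 and 85647 FPKM at 16 DPA (change 0.03, adjusted p = 0.953). Sobic.005G184400 had 105960 and 103030 FPKM at 21 DPA, against 83178 and 63776 FPKM at 16 DPA (change 0.52, adjusted p = 0.480). None of the 7 was called (change 0.03 to 0.56, adjusted p 0.167 to 0.953), 5 of them had both 21 DPA libraries above both at 16 DPA, which was so for 38.3% of all genes, and the sign of Sobic.009G001600, Sobic.005G189000, Sobic.005G185400 and Sobic.002G211501 turned under quantile normalization. Where kafirin genes are near-identical copies, reads can be split between them, so single values of such genes are uncertain. How far this touched the 7 genes was not tested.

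A kafirin gene of lower level did fall. Sobic.010G136100 had 681 and 744 FPKM at 21 DPA, against 2896 and 2394 FPKM at 16 DPA, a mean 3.71-fold higher at 16 DPA (change -1.89, SE 0.37, adjusted p = 0.00224). Its replicates lay far apart between the ages. In WT the same gene had 5073 and 4621 FPKM at 21 DPA, against 6879 and 4965 FPKM at 16 DPA (change -0.27). The difference between the lines was -1.61 and did not pass (adjusted p = 0.282). This gene was singled out because it was the most abundant of those called lower.

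Transcripts of the globulins, salt-soluble storage proteins of seeds, were higher in both 21 DPA libraries without passing the test. Globulin-1 (Sobic.001G144900) had 75.0 and 93.2 FPKM at 21 DPA, against 17.4 and 35.4 FPKM at 16 DPA (change 1.71, SE 0.75, adjusted p = 0.0962). Globulin-2 (Sobic.001G059800) had 367 and 308 FPKM at 21 DPA, against 203 and 226 FPKM at 16 DPA (change 0.65, adjusted p = 0.326). For both genes the ages did not overlap, with 21 DPA above 16 DPA as in 38.3% of all genes tested, and both were called higher when only the 4 wxe libraries were fitted. In WT, globulin-1 was called higher with a change of 2.52.

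Both fatty acid genes that the study names by ID had lower values at 21 DPA. The gene of 3-ketoacyl-CoA synthase 1 (Sobic.001G482300), an enzyme family that lengthens fatty acids, fell to 1.80 and 2.47 FPKM at 21 DPA, against 4.24 and 6.49 FPKM at 16 DPA (change -1.01, SE 0.31, adjusted p = 0.0238). That call was lost without 21 DPA replicate 1 (adjusted p = 0.136), without 16 DPA replicate 2 (adjusted p = 0.172) and with no expression filter (adjusted p = 0.0549). Sobic.001G403400, the gene of the malonyl transacylase that supplies malonyl units to fatty acid synthesis, had 58.5 and 63.1 FPKM at 21 DPA, against 71.5 and 69.2 FPKM at 16 DPA (change -0.21, adjusted p = 0.121).

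Transcription factors moved both ways. Of 12 named genes, 11 were tested, 3 were called higher and 3 lower, against 10.4% and 8.70% of all genes, and their median was 0.01. The study took its list of transcription factors from earlier work and named these genes from it by their differences in the present libraries. Genes of the other groups were also named with results of these libraries known. The counts are therefore not independent evidence of a direction. Among 4 NAC genes that the study names as binders of the regulatory region of GBSSI, 2 rose. Sobic.009G086800 had 442 and 452 FPKM at 21 DPA, against 207 and 213 FPKM at 16 DPA (change 1.09, SE 0.11, adjusted p = 1.92e-05). Sobic.003G105600 had 478 and 458 FPKM at 21 DPA, against 254 and 284 FPKM at 16 DPA (change 0.80, adjusted p = 0.00184). In both genes the replicates were close and the ages well apart, and both were called higher in WT too. Sobic.005G056300 had 123 and 123 FPKM at 21 DPA, against 100.3 and 95.4 FPKM at 16 DPA (change 0.33, adjusted p = 0.125), and Sobic.002G192600 had a change of 0.03, which turned to -0.02 under quantile normalization.

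The MYB gene Sobic.002G308400 had the largest rise among these factors. It had 16.4 and 18.4 FPKM at 21 DPA, against 6.57 and 7.04 FPKM at 16 DPA (change 1.24, SE 0.12, adjusted p = 1.78e-05). Its change in WT was 0.33, and the difference between the lines, 0.91, narrowly missed the threshold (adjusted p = 0.0595). The bZIP gene Sobic.002G054800, of a family that includes activators of storage protein genes in maize, fell to 106 and 101 FPKM at 21 DPA, against 239 and 214 FPKM at 16 DPA (change -1.12, SE 0.14, adjusted p = 0.000113). The bZIP gene with a neighbouring ID, Sobic.002G055000, had 88.2 and 81.3 FPKM at 21 DPA, against 122 and 127 FPKM at 16 DPA. Its change of -0.55 (adjusted p = 0.00311) fell just short of the size, and it was called lower without 21 DPA replicate 1 and under quantile normalization. The zinc finger homeodomain gene Sobic.005G019800 fell to 182 and 189 FPKM at 21 DPA, against 364 and 405 FPKM at 16 DPA (change -1.04, SE 0.11, adjusted p = 2.38e-05). The B3 gene Sobic.007G083900 fell to 5.37 and 7.12 FPKM at 21 DPA, against 11.9 and 11.8 FPKM at 16 DPA (change -0.84, adjusted p = 0.00631), a call that ended without 21 DPA replicate 1 (adjusted p = 0.0639). The bZIP, ZF-HD and B3 genes called lower were called lower in WT as well. The ERF genes Sobic.007G147300 and Sobic.009G170800 overlapped between the ages, and the MYB gene Sobic.003G267400 was under 1 FPKM.

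The study names 4 genes in which the line carries other EMS mutations of large predicted effect, picked from a larger set by their expression in the present libraries. Of these 4, 1 rose and 1 fell, against 10.4% and 8.70% of all genes, a count too small to set them apart. The C2H2 zinc finger gene Sobic.001G501800 had 11.8 and 12.1 FPKM at 21 DPA, against 7.45 and 7.56 FPKM at 16 DPA (change 0.61, SE 0.09, adjusted p = 0.000280), and slipped under the size threshold at 0.57 with quantile normalization. The jmjC domain gene Sobic.001G175000, of a family of histone demethylases, fell to 2.40 and 2.74 FPKM at 21 DPA, against 5.15 and 5.08 FPKM at 16 DPA (change -0.78, adjusted p = 0.000702). Both genes had close replicates and no overlap. The expressed protein gene Sobic.008G013000 (change 0.17) and the tetratricopeptide-repeat gene Sobic.003G017500 (change -0.34) were not called.

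The 10 largest rises took genes from low or no expression at 16 DPA to their highest wxe level at 21 DPA. Sobic.004G211866 had 499 and 580 FPKM at 21 DPA and was listed at 0 in both 16 DPA libraries. It was also listed at 0 at 11 and 6 DPA in wxe and in all WT libraries of 21 and 16 DPA, so among these libraries only those of wxe at 21 DPA held any of its FPKM, and no fold is given. The gene with the adjacent ID, Sobic.004G211900, named here for that position after its values were seen, had 516 and 471 FPKM at 21 DPA, against 114 and 135 FPKM at 16 DPA, a mean 3.97-fold higher at 21 DPA (change 1.98, adjusted p = 1.38e-06). It was called higher in WT too (change 1.76).

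Sobic.004G163600, whose ID is next to that of SbSBEIIb, had 26.6 and 26.2 FPKM at 21 DPA, against 1.49 and 0.778 FPKM at 16 DPA (change 3.70, SE 0.23, adjusted p = 8.23e-07). Sobic.001G109000 had 61.0 and 54.3 FPKM at 21 DPA, against 4.11 and 4.72 FPKM at 16 DPA (change 3.44, adjusted p = 2.39e-06). Sobic.010G060300 had 12.8 and 11.1 FPKM at 21 DPA, against 0.342 and 0.451 FPKM at 16 DPA (change 3.21, adjusted p = 8.03e-07). In these 3 genes the replicates were close and the ages more than 10 times apart in mean. In other genes the 21 DPA replicates spread widely. Sobic.007G137700 had 90.0 and 225 FPKM at 21 DPA, against 11.5 and 12.3 FPKM at 16 DPA (change 3.47), and Sobic.008G191700 had 20.8 and 3.63 FPKM at 21 DPA and was listed at 0 in both 16 DPA libraries. The other 4, Sobic.009G104500, Sobic.003G061500, Sobic.010G152200 and Sobic.010G234000, rose by 2.87 to 3.63. Apart from Sobic.004G211866, all 9 were also called higher in WT. The sources used here give no annotation for these IDs, nor for those of the falls below.

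**Figure D4:**
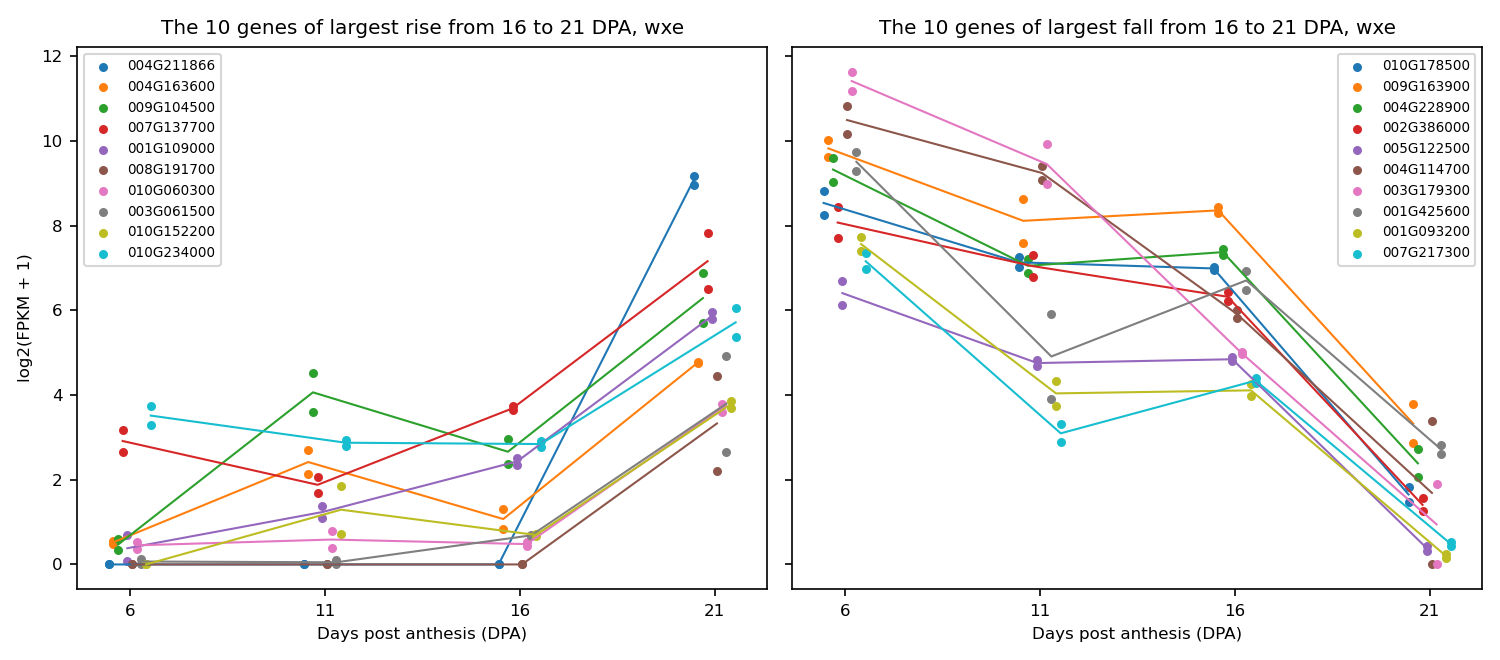
Expression in wxe on the log2(FPKM + 1) scale at 6, 11, 16 and 21 DPA for the 10 genes with the largest rise (left) and the 10 with the largest fall (right) from 16 to 21 DPA, with a point per library and lines through the means. All 10 rising genes peak at 21 DPA, and all 10 falling genes are highest at 6 DPA.

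The 10 largest falls were of genes that were highest at 6 DPA in wxe. Sobic.010G178500 had 1.78 and 2.56 FPKM at 21 DPA, against 130 and 123 FPKM at 16 DPA, a mean 58.2-fold higher at 16 DPA (change -5.34, SE 0.20, adjusted p = 2.35e-08). Sobic.009G163900 had 6.32 and 12.7 FPKM at 21 DPA, against 345 and 312 FPKM at 16 DPA, 34.5-fold higher at 16 DPA (change -5.04). Sobic.001G093200 had 0.192 and 0.109 FPKM at 21 DPA, against 18.1 and 14.7 FPKM at 16 DPA, 109-fold higher at 16 DPA (change -3.91). In these 3 genes the replicates of an age were close beside the gap between the ages. Sobic.003G179300 was listed at 0 and at 2.71 FPKM at 21 DPA, against 30.3 and 31.3 FPKM at 16 DPA (change -4.04), after 3189 FPKM in replicate 1 at 6 DPA. The remaining 6, Sobic.004G228900, Sobic.002G386000, Sobic.005G122500, Sobic.004G114700, Sobic.001G425600 and Sobic.007G217300, had changes of -4.99 to -3.85. In WT 9 of the 10 were called lower too, the exception being Sobic.001G425600 (change -1.24, with 24.7 and 39.6 FPKM at 21 DPA and 65.0 and 87.3 FPKM at 16 DPA in WT).

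Several very abundant genes of unknown annotation rose as well. Sobic.009G021400, among the 10 most abundant, had 32610 and 39836 FPKM at 21 DPA, against 18230 and 17513 FPKM at 16 DPA (change 1.01, SE 0.27, adjusted p = 0.0116). Its call was lost in several fits, with an adjusted p of 0.0896 under quantile normalization, 0.150 with no expression filter, and 0.0528, 0.0646 and 0.0664 without 16 DPA replicate 1, 16 DPA replicate 2 and 21 DPA replicate 2. Its neighbour by ID, Sobic.009G021300, had 7860 and 7006 FPKM at 21 DPA, against 4215 and 3814 FPKM at 16 DPA (change 0.89, adjusted p = 0.0178), and likewise lost its call under quantile normalization (adjusted p = 0.167), with no filter (0.0593) and without 16 DPA replicate 1, 16 DPA replicate 2 or 21 DPA replicate 1 (0.0566, 0.0989 and 0.0921). Firmer rises were those of Sobic.002G362400, with 5484 and 5860 FPKM at 21 DPA against 1375 and 1556 FPKM at 16 DPA (change 1.95, adjusted p = 1.61e-05), and Sobic.009G009800, with 5117 and 5150 FPKM at 21 DPA against 1191 and 1373 FPKM at 16 DPA (change 2.00, adjusted p = 0.000204). The adjacent Sobic.009G009900 had 2750 and 3168 FPKM at 21 DPA, against 812 and 786 FPKM at 16 DPA (change 1.88, adjusted p = 0.00597). All these genes had no overlap between ages. After the kafirin gene above, the most abundant fall was that of Sobic.002G367600, with 1008 and 1091 FPKM at 21 DPA against 1700 and 1868 FPKM at 16 DPA (change -0.76, adjusted p = 0.00173). Of the 10 most abundant genes called higher, 7 were called higher in WT, and of the 10 most abundant called lower, 6 were called lower in WT. These genes were chosen after their values were seen.

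Among the 20 genes whose change differed between the lines, 14 were called in wxe. A deeper fall in wxe than in WT was seen in 6 of them. Sobic.010G178500, the largest fall of all, had a WT change of -3.10, with 10.7 and 11.8 FPKM at 21 DPA and 103 and 105 FPKM at 16 DPA in WT (difference -2.24, SE 0.28, adjusted p = 0.0102). Sobic.005G122500 had 0.240 and 0.354 FPKM at 21 DPA, against 26.8 and 28.8 FPKM at 16 DPA in wxe (change -4.47), and 2.46 and 2.73 FPKM against 20.8 and 19.6 FPKM in WT (change -2.56), a difference of -1.91 (adjusted p = 0.0144). In both genes the wxe libraries lay below those of WT at 21 DPA and above them at 16 DPA. Sobic.010G134700 had a difference of -1.83 (adjusted p = 0.0314).

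In 5 of the called genes the sign differed between the lines. Sobic.003G382800 fell in wxe to 12.6 and 10.6 FPKM at 21 DPA, against 22.5 and 21.1 FPKM at 16 DPA, whereas in WT it rose to 31.0 and 31.8 FPKM at 21 DPA, against 20.3 and 17.9 FPKM at 16 DPA. The difference was -1.55 (SE 0.17, adjusted p = 0.00485), and it was the only gene called in opposite directions whose difference passed. The other 2 called lower in wxe and higher in WT were Sobic.006G129600 and Sobic.009G122300, with adjusted p values of the difference of 0.130 and 0.0552. In both, the wxe fall itself lost its call in several fits. Sobic.001G050650 rose to 4.16 and 3.14 FPKM at 21 DPA in wxe, against 0.682 and 0.602 FPKM at 16 DPA, while WT had 2.82 and 2.56 FPKM against 2.92 and 3.11 FPKM (difference 1.61, adjusted p = 0.0228). Here the wxe libraries lay above those of WT at 21 DPA and below them at 16 DPA. Sobic.003G100000 fell less in wxe (change -0.70) than in WT (change -1.90), a difference of 1.20 (adjusted p = 0.00852). The differences of Sobic.010G178500, Sobic.005G122500, Sobic.010G134700, Sobic.001G050650 and Sobic.003G100000 lost their call in 1 or more of the fits without 1 library, while that of Sobic.003G382800 kept it in all. Sobic.008G054800 was the mirror image of Sobic.004G211866, listed at 0 in all 4 wxe libraries and having 9.70 and 13.7 FPKM in WT at 21 DPA.

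**Figure D5:**
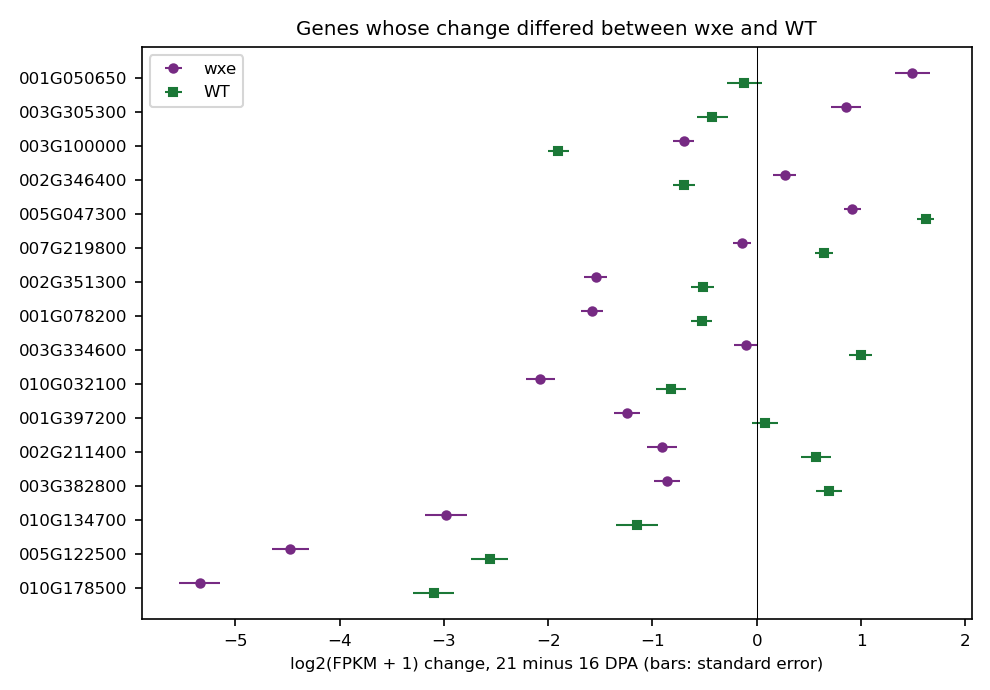
Change from 16 to 21 DPA on the log2(FPKM + 1) scale with its standard error, in wxe (purple circles) and below it in WT (green squares), for the 16 genes tested in both lines whose change differed. The 3 lowest genes fell in both lines and further in wxe, and Sobic.003G382800, the fourth from the bottom, lies on opposite sides of 0.

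Listings at exactly 0 were found at both ages. In 32 genes with a mean above 1 FPKM at 16 DPA both 21 DPA libraries were listed at 0, and 15 of these were called lower. In 19 genes the reverse held, and 6 of these were called higher. A further 8 genes were listed at 0 in 1 wxe library and above 10 FPKM in its replicate, so a 0 in this table does not always mean that a transcript was missing. Genes called in the same direction at times followed each other in the order of IDs. Genes that were not tested can lie between them. How many such runs the shares of called genes alone would give was not tested. With genes ordered by ID among those tested, 6 runs of 4 or more called genes were found, 3 lower and 3 higher, and all 25 genes in them had a WT change of the same sign, as had 98.0% of all genes called higher and 97.0% of those called lower. The longest was of 5 genes called lower on chromosome 7, between Sobic.007G023400 and Sobic.007G024100. Within it Sobic.007G024100 had 0.908 and 1.14 FPKM at 21 DPA, against 15.01 and 11.7 FPKM at 16 DPA (change -2.82). On chromosome 3 a run of 4 genes called higher held Sobic.003G331700, which had 1680 and 1646 FPKM at 21 DPA, against 1036 and 910 FPKM at 16 DPA (change 0.78).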

How the data were processed

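Endosperm RNA was sequenced as paired-end reads from 2 libraries for each of 8 groups, wxe and WT at 6, 11, 16 and 21 DPA. The authors trimmed the reads, aligned them with STAR to the sorghum version 3 genome and deposited 1 table of FPKM per gene and library, computed with Cufflinks. Tool versions and the handling of reads with several alignments are not given in the sources used here. The table holds no counts, so no counting error is given. The reads behind Cuffdiff, the test the authors used, were not used here.

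After adding 1 and taking log2, all 16 libraries entered a limma 3.58.1 fit in R 4.3.3, with 8 group means, trended variances and 8 residual degrees of freedom. Two-sided p-values were adjusted by Benjamini-Hochberg across genes whose mean passed 1 FPKM at 16 or 21 DPA. A call needed an adjusted p under 0.05 together with a change of 0.58 or more in size, as in the study. A fold on this scale understates the change of low genes. The same fit gave the WT change and the difference between the lines, adjusted over genes above 1 FPKM in any of the 4 groups. An exact permutation test of 2 libraries against 2 cannot go below p = 0.333 and was not used.

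The genes named are those that the study names by ID, the 10 largest rises and falls among called genes whose ages did not overlap, the 10 of highest mean FPKM and the genes with the largest differences between the lines. Genes picked later for their values are named as such. The members and lists were chosen with earlier results of these data known. Kafirin names follow the study. The fit was tested on simulated data. Lists by annotated function, cell type markers and promoter motifs were planned and not run, since 0 gene IDs matched the reference table. Whether RNA of embryo, pericarp or other tissue was present was therefore not tested. Alternatives were another pseudocount, filter, set of libraries, scaling, variance model and fold threshold, a replicate block, and each library left out in turn.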

Additional observations from a re-analysis of the deposited data

Results flagged for a closer look

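The change from 16 to 21 DPA differed between wxe and WT, by the limma test of the difference itself, in 20 genes. Most of these calls depended on single libraries, as given below. The differences are given as wxe minus WT on the log2(FPKM + 1) scale. The value was higher in wxe in 6 genes. It was 9.07 for Sobic.004G211866, 1.61 for Sobic.001G050650, 1.28 for Sobic.003G305300, 1.20 for Sobic.003G100000, 1.17 for Sobic.007G104866 and 0.964 for Sobic.002G346400. Of these, Sobic.007G104866 was listed at 0 in all wxe libraries of both ages and had 1.67 and 0.893 FPKM in WT at 16 DPA.

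The value was lower in wxe in 14 genes. It was -3.65 for Sobic.008G054800, -2.24 for Sobic.010G178500, -1.91 for Sobic.005G122500, -1.83 for Sobic.010G134700 and -1.55 for Sobic.003G382800. It was -1.48 for Sobic.002G211400, -1.32 for Sobic.001G397200, -1.25 for Sobic.010G032100, -1.10 for Sobic.003G334600 and -1.10 for Sobic.006G163900. The smallest were -1.05 for Sobic.001G078200, -1.03 for Sobic.002G351300, -0.788 for Sobic.007G219800 and -0.703 for Sobic.005G047300. When each library of 16 and 21 DPA was left out in turn, only Sobic.004G211866, Sobic.008G054800 and Sobic.003G382800 kept their call in every fit. All other differences listed here and above lost it in 1 or more of these fits. Among the libraries compared, Sobic.004G211866 was above 0 only in wxe at 21 DPA. Sobic.008G054800 was above 0 only in WT at 21 DPA. Leaving out a library could hardly change the calls of these genes, so keeping them says little. With 2 libraries per group, no sample was tested for standing apart from its group.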

How the results depend on the processing

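Among the named genes, most results for the wxe change kept their direction. For the wxe change of 100 named genes under the alternatives, 1393 of 1492 values kept their direction and side of the threshold. Of the others, 73 lost the call, 8 gained one and 18 changed sign. The differences between the lines, many of which lost their call, were not part of this tally. With each library left out in turn, 1418 to 1531 genes were higher and 1117 to 1374 lower in wxe, 1517 to 1772 higher and 1365 to 1631 lower in WT, and 4 to 29 differed between the lines. A fold threshold of 1 left 428 higher and 448 lower. The difference was called in 41 genes with a pseudocount of 0.1, 41 with a filter at 5 FPKM, 40 under quantile normalization and 79 with the replicate block, and the filter at 5 FPKM left 962 lower in WT. No source ties a replicate number to a shared batch, and the deviations of samples with the same number correlated at 0.023 between the wxe ages and at -0.278 to 0.367 over 28 pairs of groups, over 0.1 in 12, so the numbers were not taken as pairs. With the replicate block 1633 genes were higher and 1383 lower in wxe, 2918 of the 2922 calls among them. Fewer of the 2922 calls were kept with a pseudocount of 0.1 (2811), under quantile normalization (2725) and with no expression filter (2702). Each fit that left out a wxe library of either age kept fewer still. The totals of those fits, given above, therefore do not show that the same genes were called.

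Signs turned only where the change was small or under quantile normalization, which gave Sobic.010G022600 -0.17, Sobic.009G001600 -0.21, Sobic.005G189000 -0.21, Sobic.005G185400 -0.0657, Sobic.002G077500 -0.19, Sobic.002G211501 -0.19, Sobic.002G028100 -0.0846, Sobic.002G192600 -0.0165, Sobic.002G160400 -0.0109 and Sobic.007G147300 -0.0249. Median-ratio scaling gave Sobic.007G147300 -0.0104. With single wxe libraries left out, the change ran from -0.0109 to 0.0670 for Sobic.002G160400, from -0.0987 to 0.109 for Sobic.007G147300, from -0.114 to 0.00815 for Sobic.009G170800, from -0.00918 to 0.341 for Sobic.008G013000 and from -0.0398 to 0.1 for Sobic.009G001600. The causes were not tested. Depth in counts is unknown, so no limit of detection is given.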
